A study of Mus musculus with 6 samples.

Results

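The Groucho corepressors Tle1, Tle2, Tle3, Tle4, Aes (also called Tle5) and Tle6, together with the transcription factor gene Atf2, were followed in mouse synovial sarcoma models. These 7 genes were taken by symbol from 17312 genes with a level in each of 6 leg tumors, and all 7 were found. The tumors came from mice with a Cre-lox inducible allele of SS18-SSX1 (3 tumors) or of SS18-SSX2 (3 tumors). SS18-SSX is the fusion oncoprotein of synovial sarcoma, made of SS18, a subunit of the BAF chromatin remodelling complex, and the end of an SSX protein. In both groups the recombinase TATCre, a cell-permeable form of Cre, was injected as protein into pretibial soft tissue, no other treatment was given, and tumors were harvested about 1 year afterwards. The labels used here give neither the cell type in which Cre acted nor the strain or sex of the mice, and separate mice are not stated for the tumors. A p-value therefore covers only how these samples spread, which may be technical.

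Groucho/TLE proteins do not bind DNA themselves. They are brought to genes by transcription factors of the TCF/LEF, HES, RUNX, homeobox and other families, form oligomers through a domain at their start, and repress transcription together with histone deacetylases. TLE1 is a diagnostic marker of human synovial sarcoma, and the SS18-SSX protein has been reported to join TLE1 to ATF2, a bZIP protein that binds cyclic AMP response elements, so that genes bound by ATF2 are repressed. Tle1 to Tle4 encode full-length proteins with a WD40 repeat domain at their end, which binds the recruiting factors. Aes encodes a short protein without that domain that can oppose the long ones, and Tle6 a divergent member best known from the oocyte.

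The genes' annotated coding sequences show this division. The longest had 2340 bases in Tle1, 2301 in Tle2, 2349 in Tle3 and 2319 in Tle4. That of Aes had 591 bases, that of Tle6 1743 and that of Atf2 1461. On GRCm38, Tle1 (ENSMUSG00000008305) lies on chromosome 4 from 72117142 to 72200919 on the minus strand, Tle3 (ENSMUSG00000032280) on chromosome 9 from 61372366 to 61418497 on the plus strand and Tle4 (ENSMUSG00000024642) on chromosome 19 from 14448150 to 14598051 on the minus strand. Atf2 (ENSMUSG00000027104) spans 73816509 to 73892639 on the minus strand of chromosome 2. The other 3 members are neighbours on chromosome 10, within 41586 bases. Aes (ENSMUSG00000054452) runs from 81559488 to 81566362 and Tle2 (ENSMUSG00000034771) from 81574561 to 81590845, both on the plus strand. Tle6 (ENSMUSG00000034758) runs from 81590904 to 81601073 on the minus strand, so the 3′ ends of Tle2 and Tle6 are 58 bases apart.

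Promoter sequence from RefSeq (GRCm38.p6) was matched for 6 of the 7 members, all but Aes, and the 250 bases before each start were searched. Reading these sequences showed a 10-base palindrome, CCCACGTGGG, in 3 of the family genes, Tle3, Tle4 and Tle6. It is its own reverse complement and contains the E-box CACGTG, a sequence bound by bHLH zipper factors such as MYC and USF. The stretches are printed because the rule that chose the genes did not use sequence; capitals mark the palindrome.
Tle3, chr9:61372286-61372315, plus strand: gtcccgtggcCCCACGTGGGagcctcgcac
Tle4, chr19:14598376-14598405, minus strand: acgccctgtcCCCACGTGGGcctagcctgc
Tle6, chr10:81601066-81601095, minus strand: tggctcgcagCCCACGTGGGctcgccgcct

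From the RefSeq transcript starts, which defined the stretches, the palindrome began 70 bases before Tle3, 212 before Tle4 and 185 before Tle6. The GENCODE starts given above differ for 2 of these genes, and from them it began 70, 344 and 12 bases before Tle3, Tle4 and Tle6. Among all 32851 promoter stretches of this length 30 held it (0.0913%), from 29 of 27025 genes, and 3 of those 29 are Groucho genes. The shorter E-box CACGTG was in 6.86% of all genes and in 3 of the 6 members with sequence. The palindrome was taken as the longest sequence around the E-box that these 3 share, so both are found in the same members by construction. The motif was picked after the sequences were read, so its share among the members is a description without a test. The 3 genes that carry it did not share a pattern across tumors, as the values below show.

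For each genotype, values are listed in the order of tumors 1, 2 and 3. Each level below is an FPKM value, the number of sequenced fragments scaled to transcript length and to library size. The steps between low values gave totals from 7285832 reads in SS18-SSX2 tumor 2 to 17546276 in SS18-SSX1 tumor 3. With annotated exon lengths these totals put roughly 274 to 758 reads behind a value of Tle6 and 1889 to 4633 behind a value of Tle1 (approximate, since the authors' gene models are not known). Words of 50 bases shared with any other gene made up at most 1.17% of a member's longest transcript, in Tle6. Tumors also differed in other tissue: the summed level of 20 skeletal muscle genes was 349, 12273 and 535 FPKM for SS18-SSX1 against 124, 5524 and 150.3 FPKM for SS18-SSX2, with no marker at 0 in every tumor. The 9 mast cell markers summed to 105, 63.5 and 2425 FPKM for SS18-SSX1 against 31.1, 63.2 and 13.7 FPKM for SS18-SSX2. All 7 tested ones had a lower mean log2(FPKM + 1) with SS18-SSX2, 2 of them without overlap (3.76% of all tested genes), and 0 were called. SS18-SSX2 tumor 2 also stood apart in 12 lymphocyte markers, which summed to 752 FPKM against 3.13 to 83.8 elsewhere, and had the highest sum of 12 macrophage markers, 633 FPKM against 50.3 to 392. The sum of 10 endothelial markers was 34.3 and 49.2 FPKM in the tumors numbered 2 and 78.6 to 133 FPKM in the others. Of 9 smooth muscle and pericyte markers 8 had a higher mean log2(FPKM + 1) with SS18-SSX2, and Acta2, the smooth muscle actin gene, was 1 of the 9 genes called, with 3.58 to 5.10 against 19.96 to 28.4 FPKM, while the list summed to 102 to 294 and 164 to 256 FPKM. The 4 Y-linked genes were at 1.38 (Eif2s3y, tumor 2) to 35.2 FPKM in SS18-SSX1 tumors and at 0 to 0.0148 FPKM in SS18-SSX2 tumors. Xist was at 3.58 to 7.03 against 56.3 to 175.4 FPKM. This is the pattern of male tissue in the SS18-SSX1 tumors and of female tissue in the SS18-SSX2 tumors. Sex, which the labels do not give, and genotype thus cannot be told apart for any gene here. In bulk tissue, fewer cells of a type and less RNA per cell cannot be told apart either.

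All 7 members were expressed in every tumor, and none was called different between the genotypes. All 7 passed the filter of at least 1 FPKM in at least 3 tumors, which 13873 genes passed. With limma on log2(FPKM + 1) and Benjamini-Hochberg adjustment over all of them, 0 of the 7 members passed at 0.05, against 9 genes or 0.0649% of all tested (0.0432% higher and 0.0216% lower with SS18-SSX2). All 3 genes called lower were Y-linked (Ddx3y, Uty and Kdm5d), and Xist was 1 of the 6 called higher. Before adjustment 0 of the 7 members had p under 0.05, against 4.97% of all tested genes. The tumors of the 2 genotypes did not overlap for 1 of the 7, Tle1, which was higher with SS18-SSX2, beside 4.97% of all tested genes higher without overlap and 8.72% without overlap in either direction. The members' median log2 fold change was -0.08, with 2 above and 5 below 0, beside 0.01 over all tested genes.

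**Figure D1:**
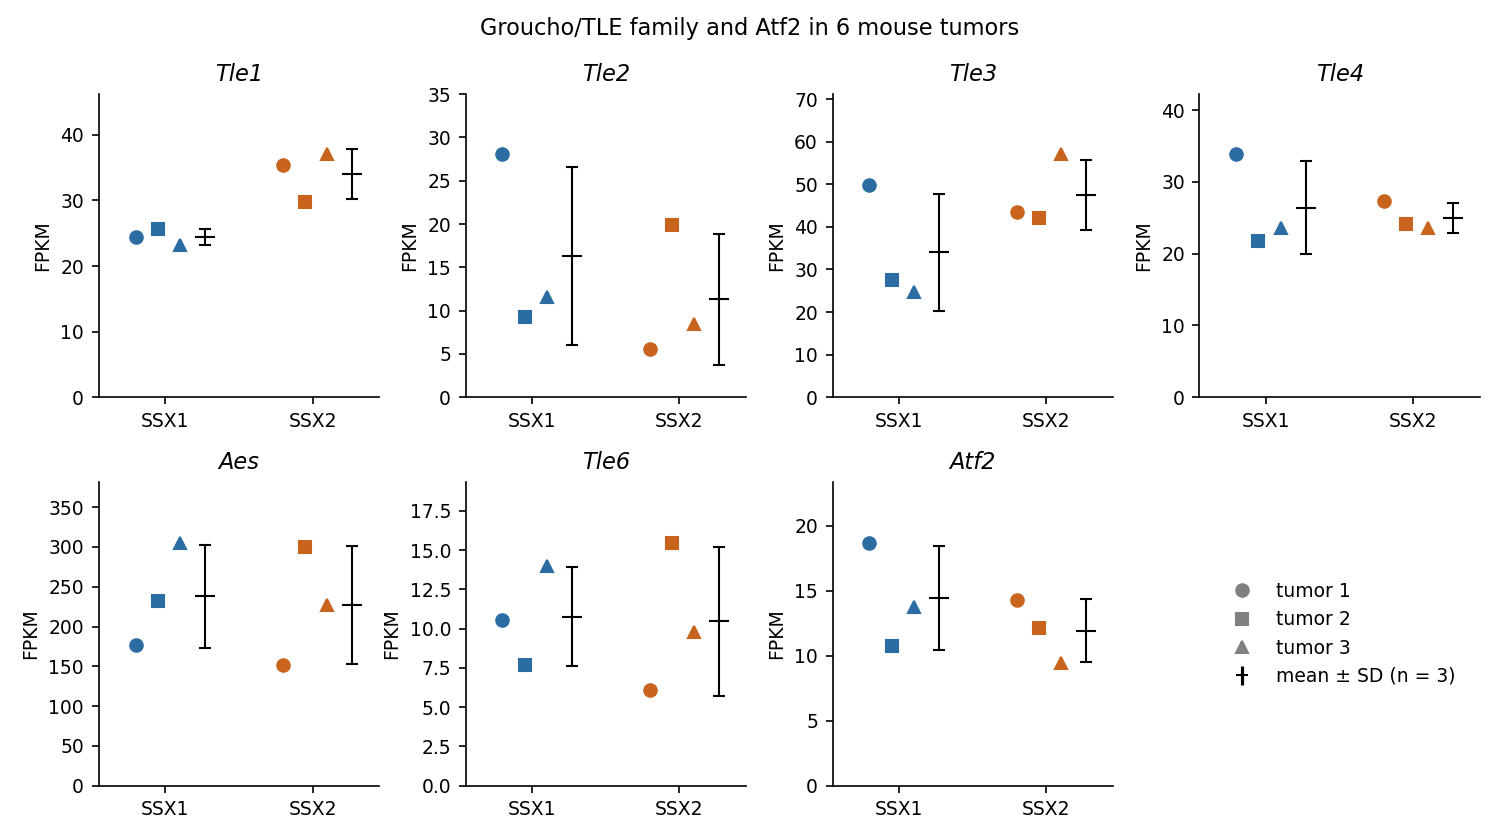
FPKM of each of the 7 genes (vertical axes, each from 0) in the 3 SS18-SSX1 tumors (blue) and the 3 SS18-SSX2 tumors (orange), with marker shapes for tumor numbers and black bars for the mean ± SD of 3 tumors. Tle1 is the gene whose groups do not overlap, at 23.3 to 25.7 against 29.8 to 37.04 FPKM.

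Tle1, the marker gene of synovial sarcoma, had the smallest SD of the 7 members among the SS18-SSX1 tumors. Its level was 24.4, 25.7 and 23.3 FPKM for SS18-SSX1 against 35.4, 29.8 and 37.04 FPKM for SS18-SSX2. All 3 SS18-SSX2 tumors were above all 3 SS18-SSX1 tumors, and SS18-SSX2 tumor 2, which stood apart in muscle and lymphocyte markers, was the lowest of its group. The means were 24.4 ± 1.20 and 34.1 ± 3.81 FPKM (SD, n = 3), a ratio of 1.39. On the log2(FPKM + 1) scale the difference was 0.46 (SE 0.22, 95% interval -0.06 to 0.98), which did not pass (limma adjusted p = 0.997, unadjusted p = 0.0758, rank 997 of 13873). An exact permutation test of this gene alone gave p = 0.1 (two-sided, n = 3 per genotype), the smallest that 3 against 3 can give. Without both tumors numbered 2, which had the most muscle and the least endothelial marker RNA, the log2 difference was 0.58 (limma adjusted p = 0.914). With the muscle level as a covariate it was 0.44 (limma adjusted p = 0.985). The part of the smooth muscle and mast cell markers and of the Y-linked difference in the Tle1 values was not tested. The annotation also places an antisense gene, Gm11250, over Tle1, as Gm15917 over Tle2, and without strand their reads cannot be told apart.

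The nearest listed gene to Tle1 is C630043F03Rik, a noncoding transcript on the opposite strand that starts 429 bases from the start of Tle1, so that the pair is transcribed away from each other. It had 4.92, 5.54 and 8.19 FPKM for SS18-SSX1 against 9.17, 8.77 and 8.15 FPKM for SS18-SSX2. SS18-SSX1 tumor 3 reached the lowest SS18-SSX2 tumor, so the groups overlapped. Its difference was 0.45 (SE 0.27, limma adjusted p = 0.997), beside 0.46 for Tle1.

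Tle3, a full-length corepressor with roles in Wnt signaling and fat cell formation, was the most abundant full-length member in every tumor. It had 49.8, 27.6 and 24.6 FPKM for SS18-SSX1 against 43.6, 42.1 and 57.1 FPKM for SS18-SSX2. SS18-SSX1 tumors 2 and 3 were below all SS18-SSX2 tumors, while SS18-SSX1 tumor 1 lay inside the range of the other group. Means were 34.01 ± 13.8 and 47.6 ± 8.27 FPKM (SD, n = 3), a ratio of 1.40, and the log2 difference was 0.53 (SE 0.32, 95% interval -0.22 to 1.28, limma adjusted p = 0.997). It was 0.83 without SS18-SSX1 tumor 1 (limma adjusted p = 0.684) and 0.34 without SS18-SSX1 tumor 3.

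Tle4, a full-length member best known from blood and forebrain development, varied little. Its level was 33.8, 21.8 and 23.6 FPKM for SS18-SSX1 against 27.3, 24.1 and 23.5 FPKM for SS18-SSX2. SS18-SSX1 tumor 1 was the highest, and the other 5 tumors lay close together. The log2 difference was -0.05 (SE 0.25, 95% interval -0.64 to 0.54, limma adjusted p = 0.997), and it was 0.13 without SS18-SSX1 tumor 1. Of 1000 genes with a like mean level, 14.9% had a smaller SD over the 6 tumors.

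Tle2, the remaining full-length member, varied most. It had 28.1, 9.27 and 11.5 FPKM for SS18-SSX1 against 5.51, 19.9 and 8.49 FPKM for SS18-SSX2. The highest tumor of each genotype was SS18-SSX1 tumor 1 and SS18-SSX2 tumor 2, and the highest level was 5.09 times the lowest. Of 1000 genes with a like mean level 91.5% had a smaller SD over the 6 tumors, against 25.7% for Tle1 and 63.8% for Tle3. The log2 difference was -0.51 with a wide interval (SE 0.53, 95% interval -1.74 to 0.72, limma adjusted p = 0.997). It was -0.06 without SS18-SSX1 tumor 1, -0.14 without SS18-SSX2 tumor 1, -0.98 without SS18-SSX2 tumor 2, -0.81 without SS18-SSX1 tumor 2 and -1.28 without both tumors numbered 2, so single tumors set its size.

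Aes, the short member that lacks the WD40 domain, was by far the most abundant of the 7. It had 177, 231 and 305 FPKM for SS18-SSX1 against 152, 300.2 and 228 FPKM for SS18-SSX2. Each genotype had its lowest level in tumor 1, and the ranges overlapped almost wholly. The log2 difference was -0.09 (SE 0.42, 95% interval -1.07 to 0.89, limma adjusted p = 0.997), with a sign that changed to 0.11 without SS18-SSX1 tumor 3, to 0.17 without SS18-SSX2 tumor 1 and to 0.04 after quantile normalization. The share of all FPKM held by small and ribosomal RNA was 10.7%, 28.0% and 19.02% for SS18-SSX1 and 7.91%, 31.2% and 18.3% for SS18-SSX2. The lowest Aes level of each genotype was thus in the tumor with its lowest such share, and the part of that share in the Aes level was not tested.

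Tle6, next to Tle2 on chromosome 10, stood lowest or near lowest. Its level was 10.6, 7.69 and 13.99 FPKM for SS18-SSX1 against 6.11, 15.5 and 9.79 FPKM for SS18-SSX2. The genotypes overlapped, with a log2 difference of -0.08 (SE 0.37, 95% interval -0.95 to 0.78, limma adjusted p = 0.997) that turned to 0.22 without SS18-SSX2 tumor 1, to 0.11 without SS18-SSX1 tumor 3 and to 6.38e-05 with weights per tumor. The 3 neighbours Aes, Tle2 and Tle6 each had their lowest level in SS18-SSX2 tumor 1. They did not share their highest tumor: it was SS18-SSX1 tumor 3 for Aes, SS18-SSX1 tumor 1 for Tle2 and SS18-SSX2 tumor 2 for Tle6. The ratio of Tle6 to Tle2 ran from 0.376 in SS18-SSX1 tumor 1 to 1.21 in SS18-SSX1 tumor 3. Use of strand in counting is not stated in these sources, and reads near the facing ends of Tle2 and Tle6 may have been assigned to either gene.

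**Figure D2:**
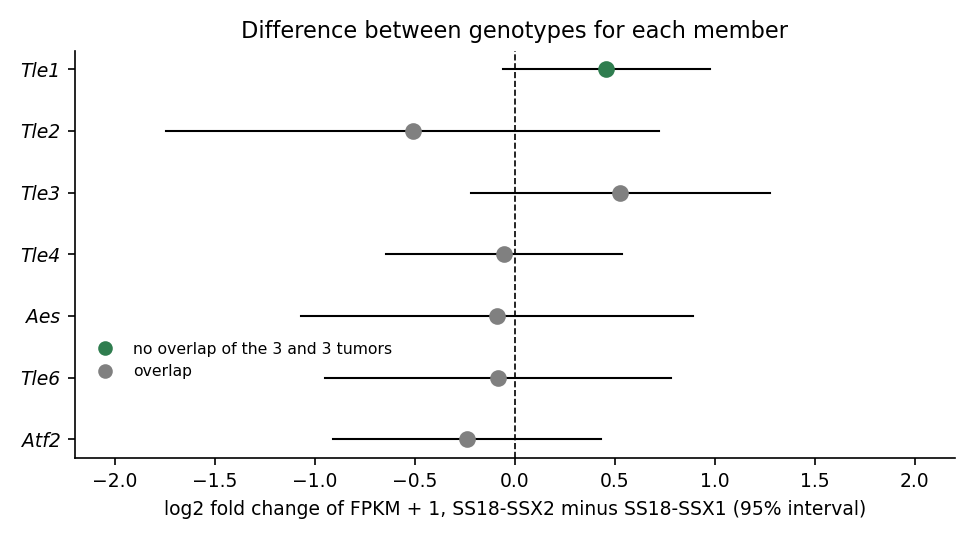
Log2 fold change of FPKM + 1 for each gene, SS18-SSX2 minus SS18-SSX1 (horizontal axis), with 95% intervals from limma as lines; green marks a gene whose 3 and 3 tumors do not overlap. Every interval includes 0, and that of Tle2 is the widest, from -1.74 to 0.72.

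The order of the members by level was partly fixed across tumors. Aes exceeded Tle3 by 3.49 to 12.4 times in FPKM and Tle3 exceeded Tle1 by 1.06 to 2.04 times, both in 6 of 6 tumors. Tle1 was above Tle4 in 4 of 6 tumors, with means over all tumors of 29.2 ± 5.84 and 25.7 ± 4.38 FPKM (SD, n = 6), so these neighbours overlapped over all tumors. Within the SS18-SSX2 tumors, however, Tle1 was above Tle4 in 3 of 3 without overlap (29.8 to 37.04 against 23.5 to 27.3 FPKM), and the exceptions were SS18-SSX1 tumors 1 and 3. Tle4 was above Tle2 in 6 of 6 tumors. Tle2, Atf2 and Tle6, with means of 13.8 ± 8.52, 13.2 ± 3.26 and 10.6 ± 3.59 FPKM (SD, n = 6), changed places from tumor to tumor and could not be ranked.

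The makeup of the full-length pool varied within each genotype. The summed level of Tle1, Tle2, Tle3 and Tle4 was 136, 84.3 and 83.0 FPKM for SS18-SSX1 against 112, 116 and 126 FPKM for SS18-SSX2. Tle1 made up 17.9% of that sum in SS18-SSX1 tumor 1 and 25.7% to 31.6% in the other 5 tumors. Tle3 took 29.7% to 36.6% with SS18-SSX1 and 36.3% to 45.3% with SS18-SSX2. The share of Tle2 was highest in SS18-SSX1 tumor 1 (20.6%) and lowest in SS18-SSX2 tumor 1 (4.93%).

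Aes, the short form, had a higher FPKM than the full-length pool in every tumor. Its FPKM divided by the sum of the 4 was 1.30, 2.75 and 3.68 for SS18-SSX1 against 1.36, 2.59 and 1.80 for SS18-SSX2. The spread within SS18-SSX1 was wider than the distance between the genotypes, and tumor 1 of each had the lowest ratio.

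**Figure D3:**
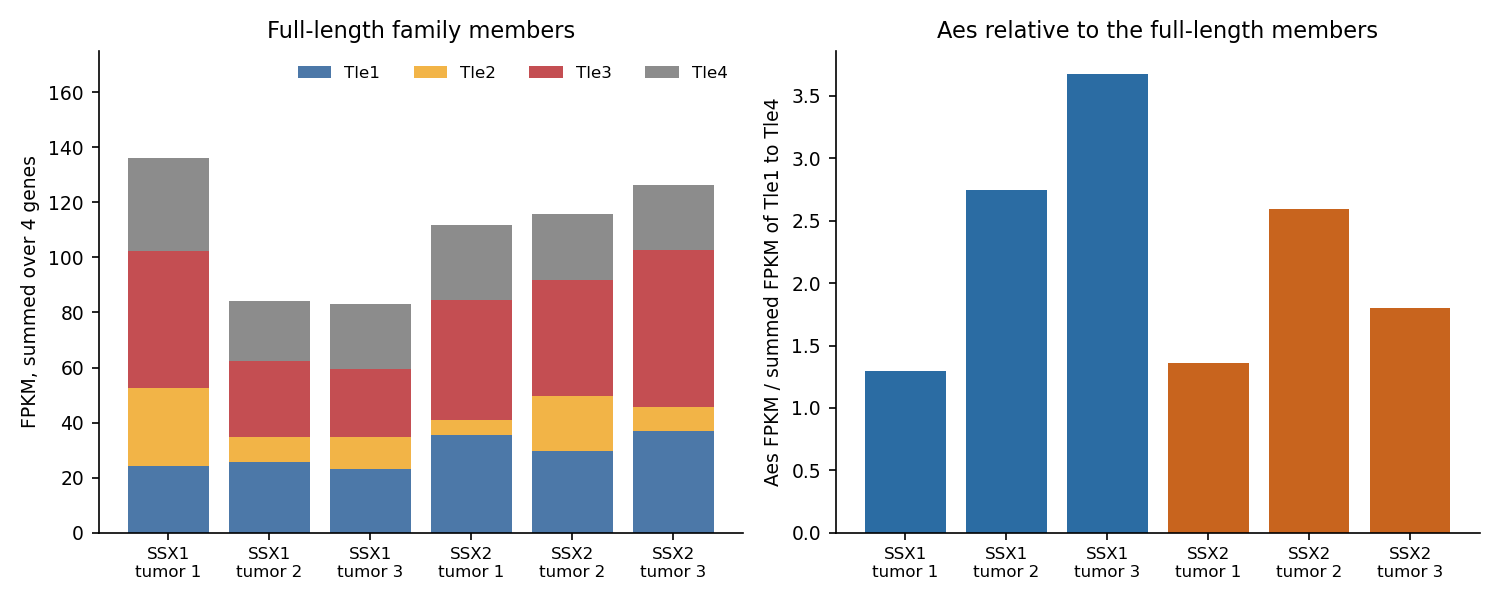
Left, FPKM of Tle1, Tle2, Tle3 and Tle4 stacked for each tumor; right, Aes FPKM divided by that sum (bars blue for SS18-SSX1, orange for SS18-SSX2), 1 bar per tumor with no error. The ratio runs from 1.30 to 3.68 within the SS18-SSX1 tumors alone.

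Atf2, the bZIP factor reported as a partner of SS18-SSX and TLE1, had 18.7, 10.8 and 13.8 FPKM for SS18-SSX1 against 14.3, 12.1 and 9.43 FPKM for SS18-SSX2. The groups overlapped, and SS18-SSX1 tumor 1 was the highest of all. Means were 14.4 ± 3.998 and 11.9 ± 2.43 FPKM (SD, n = 3), with a log2 difference of -0.24 (SE 0.29, 95% interval -0.91 to 0.43, limma adjusted p = 0.997). It was -0.05 without SS18-SSX1 tumor 1, -0.09 without SS18-SSX2 tumor 3, -0.42 without SS18-SSX1 tumor 2, -0.37 without SS18-SSX2 tumor 1 and -0.43 without both tumors numbered 2. SS18-SSX1 tumor 1 thus held the highest level of Atf2, Tle2 and Tle4 among all 6 tumors, and the highest of Tle3 within its genotype.

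Genes with the most similar profile were sought by the root mean square difference of centred log2(FPKM + 1) over the 6 tumors, among genes that varied at least as much as the member. The closest to Tle1 was Aunip, a gene of DNA repair and the spindle pole, with a difference of 0.0882 (log2). Aunip was low, at 0.67 to 1.86 FPKM, where this scale understates changes. The closest to Tle3 was Plekhg2 with 0.0985. Tle2 was nearest to Spint1, which encodes an epithelial protease inhibitor, with 0.159, and that gene had 9.96, 3.15 and 3.09 FPKM for SS18-SSX1 against 1.32, 8.48 and 2.24 FPKM for SS18-SSX2. Aes was nearest to Abhd17a, a depalmitoylating enzyme gene, with 0.0739, Tle6 to Smim24 with 0.135, Tle4 to Zfp113 with 0.0424 and Atf2 to Ppig, a cyclophilin gene, with 0.0446. Each was the closest of many genes compared, from 1872 for Tle2 to 12300 for Tle4, so a close match over 6 values is easily found. The members' own SD ran from 0.22 (Tle4) to 0.79 (Tle2), so the differences cannot be compared between members. These are descriptions over 6 tumors that share their libraries.

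None of the DNA-binding factors that recruit TLE proteins was called different between the genotypes, and the smallest p-values were those of the homeobox gene En2 and the HES gene Hes5. Of 27 in the list, 26 were in the table and 19 passed the filter. Of these 19, 0 were called (3 at an unadjusted p under 0.05). There were 15 log2 differences above and 4 below 0, with a median log2 fold change of 0.15 beside 0.01 over all tested genes. In 3 of the 19 the genotypes did not overlap, all higher with SS18-SSX2 (4.97% of all tested genes). En2, an engrailed homeobox repressor of the midbrain and hindbrain that binds Groucho directly, had 0.0754, 0.802 and 4.22 FPKM for SS18-SSX1 against 17.002, 15.8 and 21.7 FPKM for SS18-SSX2. Its log2 difference was 3.14 (SE 0.55, limma adjusted p = 0.297), and it passed in 1 of 18 other settings, with weights per tumor (limma adjusted p = 0.0317). Hes5, a Notch-induced repressor that ends in a Groucho-binding motif, had 2.53, 1.33 and 3.14 FPKM and then 9.34, 8.76 and 15.1 FPKM, a log2 difference of 1.86 (SE 0.34, limma adjusted p = 0.353). Runx3, the third of them, had 2.91 ± 2.38 and 6.80 ± 1.30 FPKM (SD, n = 3). The most abundant factor was Hes1, a related repressor, at 93.7 ± 58.6 and 74.9 ± 12.7 FPKM (SD, n = 3).

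The enzymes and scaffolds of repression were expressed throughout. Of 12 corepression partners 0 were called (1 at an unadjusted p under 0.05), with a median of 0.06. Ctbp1, a corepressor of a different family, had 95.2 ± 6.59 and 101 ± 17.5 FPKM (SD, n = 3), and Rbbp7, a histone-binding subunit of deacetylase complexes, had 58.8 ± 5.86 and 48.9 ± 5.30 FPKM.

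Of 11 genes whose products modify or displace TLE proteins 0 were called (1 at an unadjusted p under 0.05), with a median of 0.16. Hipk2, a kinase that phosphorylates Groucho, had 4.78, 6.84 and 4.88 FPKM for SS18-SSX1 against 12.4, 9.80 and 13.6 FPKM for SS18-SSX2. The genotypes did not overlap, and the log2 difference of 1.00 (SE 0.27) did not pass (limma adjusted p = 0.602). Ctnnb1, the gene of beta-catenin, which displaces TLE from TCF factors, had 193 ± 17.7 and 216 ± 32.3 FPKM (SD, n = 3). Usp47, a deubiquitinase that acts on TLE proteins, had 46.1 ± 6.94 and 40.1 ± 6.86 FPKM.

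On the Atf2 side, bZIP relatives and dimer partners had 0 of 15 tested genes called, out of 17 in the list (1 at an unadjusted p under 0.05), 6 log2 differences above and 9 below 0, and a median of -0.28. Creb5, a close paralog of Atf2, had 14.4, 8.99 and 4.67 FPKM for SS18-SSX1 against 2.22, 4.83 and 2.57 FPKM for SS18-SSX2. SS18-SSX2 tumor 2 slightly exceeded SS18-SSX1 tumor 3, and the log2 difference was -1.23 (SE 0.43, limma adjusted p = 0.84). Atf4, the stress response factor, was among 2 genes that were lower without overlap (3.76% of all tested genes), at 76.2 ± 22.1 and 51.3 ± 4.79 FPKM (SD, n = 3), and Atf1 was the other, at 9.31 ± 0.881 and 7.48 ± 0.606 FPKM. Jun, a dimer partner of ATF2, ranged from 11.7 to 50.995 FPKM with SS18-SSX1 and from 26.6 to 63.1 FPKM with SS18-SSX2.

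Kinases that phosphorylate ATF2 had 0 of 9 tested genes called (0 at an unadjusted p under 0.05) and a median of -0.03. Mapk14, the p38 alpha kinase, had 21.9 ± 2.33 and 20.4 ± 1.55 FPKM (SD, n = 3). Mapk11, the p38 beta kinase, had 5.59 ± 1.44 and 8.40 ± 1.41 FPKM (limma adjusted p = 0.997). It was higher with SS18-SSX2 without overlap (4.97% of all tested genes), but the groups almost touched. SS18-SSX1 tumor 3 had 6.94 FPKM and SS18-SSX2 tumor 1 had 6.97 FPKM.

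**Figure D4:**
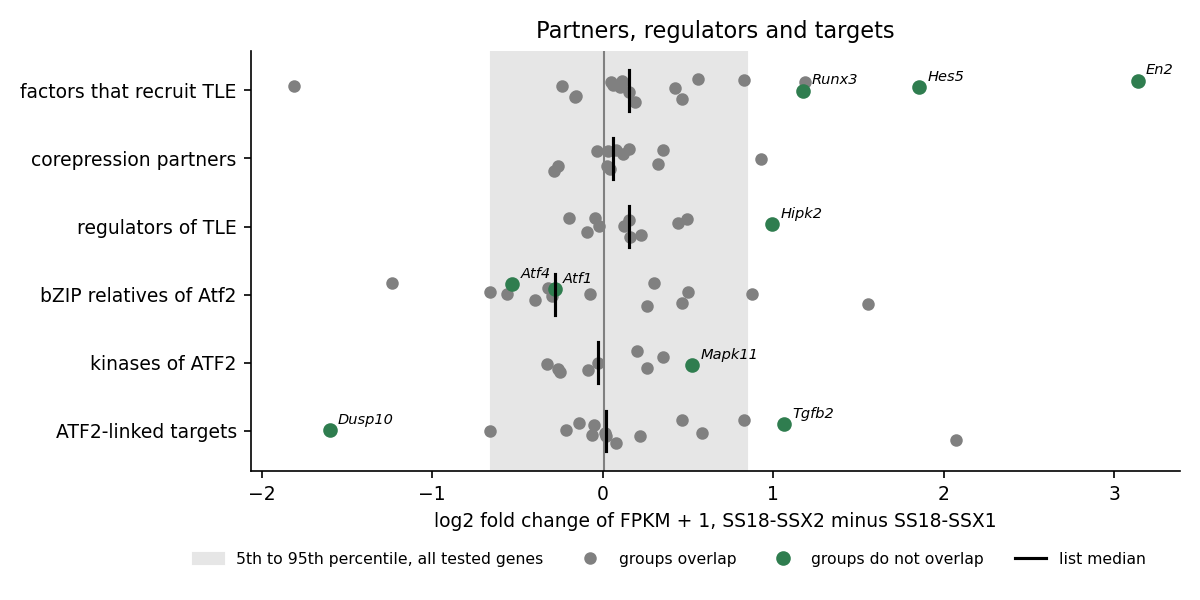
Log2 fold change of FPKM + 1, SS18-SSX2 minus SS18-SSX1, for each tested gene of 6 lists (1 point per gene, spread vertically for legibility), with list medians as black bars and the grey band holding the 5th to 95th percentile of all tested genes. List medians lie between -0.28 and 0.16, and the named green genes are those whose tumors do not overlap.

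None of the genes linked to ATF2 as targets was called different between the genotypes. Of 18 in the list, 16 were in the table and 15 were tested; 0 were called (3 at an unadjusted p under 0.05), 9 log2 differences were above and 6 below 0, and the median was 0.02. Atf3 and Egr1, reported as repressed by the SS18-SSX, TLE1 and ATF2 complex, overlapped between genotypes. Atf3 had 5.56, 47.2 and 12.4 FPKM for SS18-SSX1 against 5.97, 14.7 and 8.81 FPKM for SS18-SSX2, and its highest level in each genotype was in the tumor numbered 2. Egr1 had 1.64, 6.35 and 26.7 FPKM and then 12.5, 11.9 and 16.4 FPKM. The samples include no tissue without a fusion, so these values do not address whether SS18-SSX represses either gene.

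Of the other targets, Cdkn2a, the locus of the p16 and p19 tumor suppressors, had 21.6, 2.11 and 2.53 FPKM for SS18-SSX1 against 12.8, 43.1 and 29.4 FPKM for SS18-SSX2. SS18-SSX1 tumor 1 lay within the SS18-SSX2 range, and the log2 difference was 2.07 (SE 0.78, limma adjusted p = 0.889), or 1.197 without both tumors numbered 2. Dusp10, a phosphatase of the p38 and JNK kinases, had 13.7, 7.23 and 9.44 FPKM and then 2.33, 2.62 and 2.75 FPKM. Every SS18-SSX2 tumor was below every SS18-SSX1 tumor, with a log2 difference of -1.60 (SE 0.30) that did not pass (limma adjusted p = 0.353, 0.140 to 1.00 over 18 other settings). Tgfb2, a growth factor gene, was the target higher without overlap, at 18.2 ± 9.06 and 35.7 ± 6.45 FPKM (SD, n = 3), a log2 difference of 1.06 (SE 0.42, limma adjusted p = 0.936), which was 0.59 without SS18-SSX1 tumor 3.

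The upstream 250 bases of these targets were searched on both strands for the cyclic AMP response element TGACGTCA, its core TGACGT (which the full element contains) and the variant TGACATCA known from the Jun promoter. The full element was in 2 of 14 listed target genes with promoter sequence and in 1.77% of all genes with it. The core was in 6 of 14 and 7.29%, and the variant in 3 of 14 and 3.41%. The listed genes were chosen as linked to ATF2, and Jun itself is among the 3 with the variant. Their shares are thus descriptions without a test. The genes with the core include Il6, which had no level here, and Pck1, which was not tested. Those with the variant include Sele, which also had no level. Among the 6 members with sequence the core was found in Tle3 and the other two in none. The Dusp genes and Jun are shown as ATF2-type sites beside genes of this list, with Tle3 for comparison; capitals mark the match.
Dusp1, chr17:26508597-26508626, minus strand: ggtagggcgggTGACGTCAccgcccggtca
Dusp8, chr7:142095373-142095402, minus strand: gcccgctccgcTGACGTCAcctgcccccga
Dusp10, chr1:184034213-184034242, plus strand: ttggttgccaaTGACATCAccacccgcgcg
Jun, chr4:95052249-95052278, minus strand: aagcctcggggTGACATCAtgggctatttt
Tle3, chr9:61372238-61372267, plus strand: aagagggcattgTGACGTcgcgcctggcgg

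The printed genes differed in direction. Dusp10 had the lower mean with SS18-SSX2 and no overlap, whereas Jun, with the same variant, and Tle3, with the core, had higher means with overlap, and Dusp1 and Dusp8, with the full element, had log2 differences of 0.08 and -0.05. The AP-1 motif TGANTCA was also searched and was in 4 of 14 targets (Il6 and Sele among them), none of the members and 7.82% of all genes.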

How the data were processed

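The authors deposited 1 table of FPKM values, per the file headers with 1 column per tumor and Ensembl gene identifiers in rows; no column was pooled. Per the submitters' processing notes the tools and builds include Novoalign 2.08.03 and mm10, without a role. How reads were counted, with which gene models, filter and strand, is not stated there. Total RNA libraries were made with Ribo-Zero, per the labels' protocols. Columns were matched to tumors by their descriptions, and symbols came from GENCODE M21 on GRCm38 (17029 of 17312 genes). Totals of reads were derived from the steps of low FPKM values in genes with 1 exon; 70.1% to 73.5% of low values were whole within 0.02 reads.

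Genes with at least 1 FPKM in at least 3 tumors (13873) entered a limma 3.58.1 model of log2(FPKM + 1), run in R 4.3.3 (lmFit, eBayes with a trend). The contrast was SS18-SSX2 minus SS18-SSX1. Two-sided p-values were adjusted by Benjamini-Hochberg across these genes, at a threshold of 0.05; the script was tested on simulated data. Fold changes on this scale understate changes of low genes. Alternatives were pseudocounts of 0.1 and 0.5, no filter, a mean of at least 5 FPKM, quantile and upper quartile scaling, TPM, eBayes without a trend, weights per tumor, the muscle level as a covariate, the tumor number as a block, and leaving out tumors. Members and lists were chosen with earlier results of these data known. Named genes were the members, the 3 most abundant and the 2 with the smallest p of each list, the 2 closest profiles and the nearest listed genes; Runx3, Tgfb2, Atf1, Atf3, Egr1, Jun, Dusp1 and Dusp8 were named beyond this after their values were seen. Some genes that this rule takes are not reported here. Python 3.11.15 served for tables and figures.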

Additional observations from a re-analysis of the deposited data

How the results depend on the processing

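No member was called under any of 18 alternatives, and Tle1, Tle2, Tle3 and Atf2 kept their direction in all 18. Tle1 ranged from 0.40 to 0.58 (log2), Tle3 from 0.34 to 0.83, Tle2 from -1.28 to -0.06 and Atf2 from -0.43 to -0.05. Signs changed for Aes with quantile normalization (0.036), Tle4 with TPM (0.018) and Tle6 with weights per tumor (6.38e-05). Leaving out 1 tumor gave -0.32 to 0.17 for Aes, -0.17 to 0.13 for Tle4 and -0.39 to 0.22 for Tle6. The cause was not tested. Over all genes 9 calls became 5 with a pseudocount of 0.1, 16 with weights per tumor, 4 without both tumors numbered 2 and 1 to 3 without 1 tumor. Weights also gave 1 call in the lists, En2.

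Whether tumor numbers pair the tumors could not be decided. Deviations from the genotype means correlated at 0.38, 0.31 and -0.28 across genes for numbers 1, 2 and 3. Between unlike numbers the correlations ran from -0.44 to 0.23. Deviations of 3 tumors sum to 0 within a genotype, so these values depend on each other. Column names begin with A for both tumors numbered 2 and with B for both numbered 3, without a stated meaning. With the replicate block 4 genes were called and 0 members. With 3 tumors per genotype, differences as small as those of the members could not be separated from the spread between tumors.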

Other observations

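Of 9 tested genes that lie nearest to a member on either side, 2 had tumors that did not overlap between genotypes, both higher with SS18-SSX2 (4.97% of all tested genes). Psat1, a gene of serine synthesis 1306627 bases from Tle4, was at 16.1 ± 3.90 FPKM for SS18-SSX1 against 29.8 ± 7.55 FPKM for SS18-SSX2 (SD, n = 3, limma adjusted p = 0.84). Chn1, which encodes chimaerin, a Rac regulator, and lies 41163 bases from Atf2, had 3.01 ± 0.186 and 4.74 ± 0.655 FPKM (limma adjusted p = 0.997). Gna11, a G protein gene 14298 bases from Aes, had 40.4 ± 6.57 and 38.6 ± 6.93 FPKM and overlapped.

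Of 14 listed genes used as markers of synovial sarcoma, 12 were in the table and tested, and 0 were called (limma, 2 at an unadjusted p under 0.05). Epcam and Sox2 were lower without overlap (3.76% of all tested genes). Epcam, an epithelial adhesion gene, had 104, 12.4 and 15.1 FPKM for SS18-SSX1 against 7.96, 8.81 and 10.5 FPKM for SS18-SSX2, with SS18-SSX1 tumor 1 far above the others (limma adjusted p = 0.997). Sox2, a stem cell factor, was at 36.8 ± 5.05 and 16.97 ± 6.45 FPKM (SD, n = 3, limma adjusted p = 0.681). Vim, the mesenchymal filament gene, had 148 ± 90.5 and 344 ± 96.0 FPKM with overlap (limma adjusted p = 0.895).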
